A study of Micropterus salmoides with 24 samples.

Results

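The 12 trunk kidney libraries and the 12 head kidney libraries of male largemouth bass (Micropterus salmoides) were compared, which are all 24 of the 24 libraries analysed. A library was placed in a tissue by its title, and the comparison adjusted for the treatment in the title. Each tissue had 4 libraries from control fish in clean water, 4 from fish exposed to glyphosate at 10 mg/L and 4 from fish exposed to Rodeo, a glyphosate-based herbicide formulation, at the same glyphosate concentration. All fish were adult males from a Florida hatchery, were exposed for 21 days and were kept 4 fish to a tank in 4 tanks per treatment. The tank of each sequenced fish, the sequencing run and the day of preparation are not stated in the labels, so a run that followed tissue cannot be told apart from the tissue. The question was which tissue differences hold within each of the 3 treatments, and with what size, level and spread.

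In teleost fish the kidney is divided along the body. The head kidney holds blood-forming and immune tissue together with endocrine cells, the interrenal cells that make cortisol and the chromaffin cells that make catecholamines. The trunk kidney holds the nephrons, whose glomeruli filter blood and whose tubules reabsorb salts and nutrients, set among further blood-forming tissue. The counts refer to assembled transcript contigs whose identifiers carry no gene names, so the labelled tissues were not checked against marker genes here and no pathway can be named. In whole tissue, fewer cells of a type and less RNA per cell cannot be told apart.

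Trunk libraries were deeper, at 24520347 ± 2317079 counts (SD, n = 12) against 16617915 ± 4301725 in head libraries (SD, n = 12; permutation test, two-sided, p = 2e-05, the smallest the resamples allow, adjusted p = 6e-05 over 9 library measures). The shallowest was head control 3, at 9871623 counts. After thinning each library to that depth, 54886 ± 5217 contigs were seen in trunk and 50036 ± 5615 in head (SD, n = 12 each; permutation test, adjusted p = 0.0666). The TMM factor, which rescales a library so that most contigs match the others, was 0.861 ± 0.186 in trunk and 1.20 ± 0.130 in head (SD, n = 12 each; permutation test, adjusted p = 0.00027). It was lowest in trunk glyphosate 4, 3 and 2, at 0.528, 0.643 and 0.676. Treatment labels did not follow patterns shared between the tissues. For 63 contigs that were on in some libraries and off in others, with a gap of more than 8-fold, 8 pairs of a head and a trunk library were each other's best partner and alike for at least 96.8% of the contigs. The 136 other pairs reached at most 85.7%. Of the 8 alike pairs, 0 shared a treatment label. No library was moved to another group and none were paired, and "within a treatment" below means within a label.

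Contigs higher in either tissue were counted first. Of 52407 tested contigs, 27993 (53.4%) passed the threshold, an adjusted p under 0.05 (edgeR quasi-likelihood test) with a difference of more than 1 on the log2 scale, which is more than 2-fold. Trunk kidney was the higher tissue for 16357 (31.2%) and head kidney for 11636 (22.2%). The trunk-higher contigs had a median log2 difference of 3.32 (interquartile range 1.93 to 6.0, median SE 0.528). The head-higher contigs had a median of -2.13 (interquartile range -3.01 to -1.53, median SE 0.459). The trunk-higher contigs thus had the larger median difference, while the median over all tested contigs was 0.09. A test against a change of 1 itself (glmTreat in edgeR) called 21646 of the 52407, 13717 higher in trunk and 7929 higher in head. Without the filter on low counts, 35514 of 78435 contigs were called.

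The trunk-higher contigs had low levels in the head kidney. Their median level was 4.40 CPM in trunk (TMM-scaled counts per 1000000) and 0.288 CPM in head, and 1713 of them had 0 counts in all 12 head libraries, which allows a mean of up to 0.0126 CPM. The head-higher contigs had a median of 2.52 CPM in head and 0.535 CPM in trunk, and 91 of them had 0 counts in all 12 trunk libraries, which allows up to 0.0118 CPM. These limits come from 3 counts over the 12 libraries and cover counting error only. Contigs at 0 in a tissue could pass the filter on low counts only through the other tissue. All 1713 and all 91 tested contigs of this kind were called, so their direction was fixed by the filter. Contigs low but above 0 in a tissue could also have passed the filter through the other tissue alone. For these the filter bears on the direction too, and their number was not counted. Both kinds were kept in the counts of called, large, non-overlapping and held differences. A difference of more than 8-fold was held by 8922 trunk-higher and 2944 head-higher contigs. More than 64-fold was reached by 3505 trunk-higher and 169 head-higher contigs when contigs at 0 were set to that limit. Of the 16357 trunk-higher contigs 99, and of the 11636 head-higher contigs 21, averaged at least 1000 CPM in their higher tissue. This count rests on TMM and was not repeated under another scaling. How many of all tested contigs reached that level in each tissue is not given here.

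**Figure D1:**
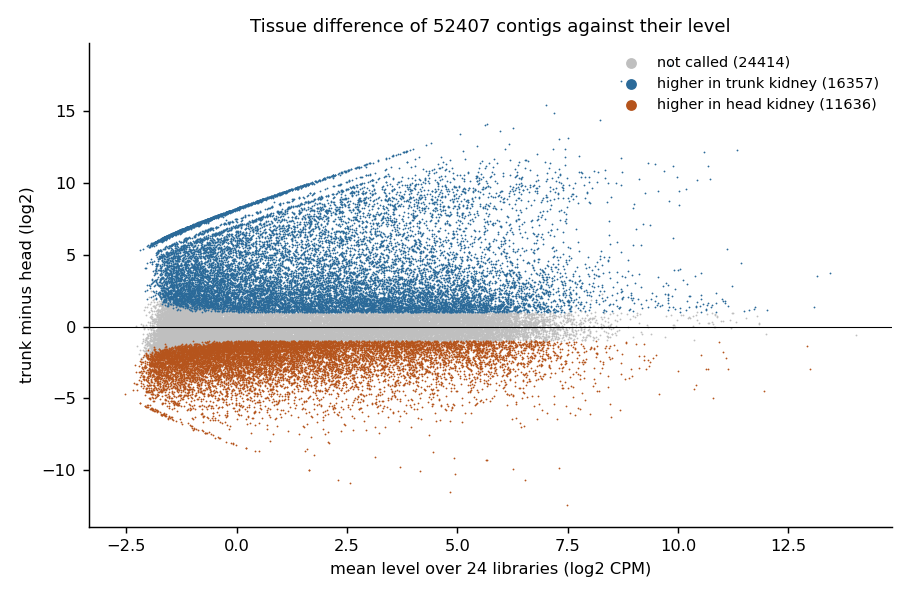
Each point is a tested contig, with its mean level over the 24 libraries (log2 CPM) on the x axis and its log2 difference, trunk minus head, on the y axis. Trunk-higher contigs (blue, 16357) spread to larger differences than head-higher contigs (orange, 11636), and the curved edges are contigs at 0 counts in the other tissue, whose fitted difference is no bound.

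The split by direction depended on the scaling. With TMM, 58.4% of the called contigs were higher in trunk, whereas with library totals alone 45.0% were (13375 trunk-higher and 16347 head-higher) and with upper-quartile scaling 43.3% were (13334 and 17449). The median difference over all contigs moved from 0.09 with TMM to -0.39 and -0.43 on the log2 scale. The number of contigs called in opposite directions by TMM and by either of these scalings was 0. The excess of large differences in trunk kept its order, with 7852 trunk-higher and 4250 head-higher contigs over 8-fold under library totals. Without trunk glyphosate 2, 3 and 4, which had the lowest TMM factors, 26663 contigs passed, 16796 higher in trunk and 9867 higher in head.

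**Figure D2:**
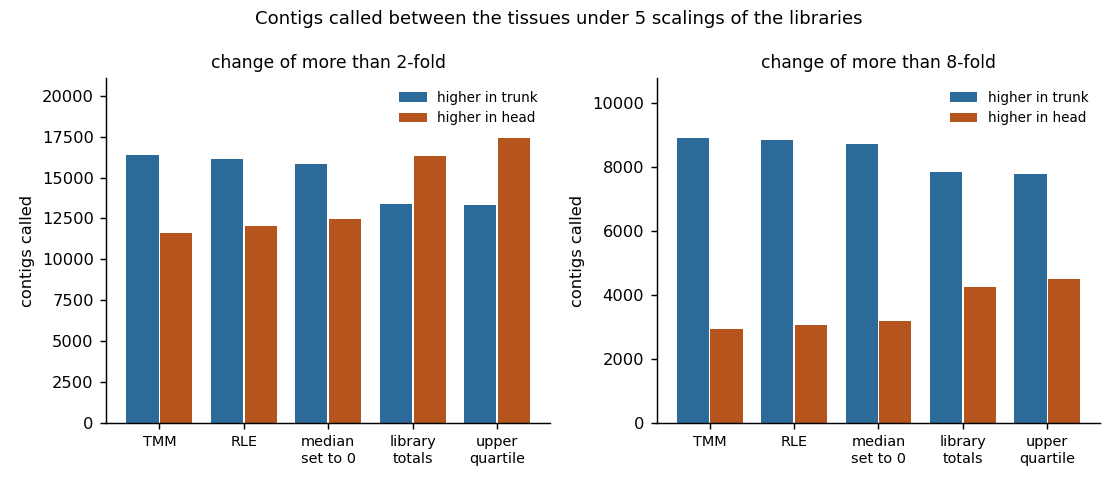
Bars give the number of contigs called higher in trunk (blue) and in head (orange) under 5 scalings of the libraries, for differences of more than 2-fold (left) and more than 8-fold (right). Over 2-fold the larger group changes with the scaling, from 16357 trunk-higher under TMM to 17449 head-higher under upper-quartile scaling, while over 8-fold trunk-higher contigs outnumber head-higher ones in all 5.

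The separation of single libraries was counted too. All 12 trunk libraries lay above all 12 head libraries for 8094 contigs (15.4%), and all 12 head libraries lay above all 12 trunk libraries for 3034 (5.79%). Among the called contigs the libraries did not overlap for 8008 (49.0%) of the trunk-higher and 2928 (25.2%) of the head-higher ones. Both shares keep the contigs at 0 in the other tissue, 1713 trunk-higher and 91 head-higher. Those passed the filter only through their higher tissue, and the shares without them were not counted. Under upper-quartile scaling, the libraries were apart for 6375 contigs with trunk above and 5163 with head above.

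The contigs named here were those with the smallest p in each direction among contigs that held in all 3 treatments with an average of 5 or more log2 CPM. The values that chose them are those given, so they are a description. The contig isotig128247 ranged from 46.8 to 125 CPM in trunk (median 61.6) and from 0 to 0.155 CPM in head (median 0.0808). Every trunk library lay far above every head library. Its log2 difference was 9.61 (SE 0.258, edgeR adjusted p = 9.54e-20). It was 9.85, 10.09 and 8.88 within control, glyphosate and Rodeo. These sizes rest on 0 to 3 counts in each head library and are therefore uncertain.

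LMB_Assem.0.C246 was nearly even among the trunk libraries, from 164 to 260 CPM (median 197), and ranged from 1.32 to 2.72 CPM in head (median 2.39). The groups were far apart in all 3 treatments, with log2 differences of 6.59, 6.51 and 6.47 within control, glyphosate and Rodeo and 6.53 (SE 0.179) over all libraries. Unlike isotig128247, it had counts in all 12 head libraries.

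In the other direction, contig56602 ranged from 208 to 627 CPM in head (median 423) and from 5.62 to 16.8 CPM in trunk (median 7.06). Over all libraries the log2 difference came to -5.65 (SE 0.215, edgeR adjusted p = 3.57e-17), and it was -5.33, -6.06 and -5.58 within control, glyphosate and Rodeo. LMB_Assem.11263.C1 ranged from 184 to 586 CPM in head (median 400) and from 3.66 to 15.4 CPM in trunk (median 4.56). Its highest trunk library, trunk control 4, stood apart from the other 3 trunk controls at 3.98 to 5.39 CPM and was still below every head library. The log2 difference was -6.16 (SE 0.245, edgeR adjusted p = 5.83e-17).

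**Figure D3:**
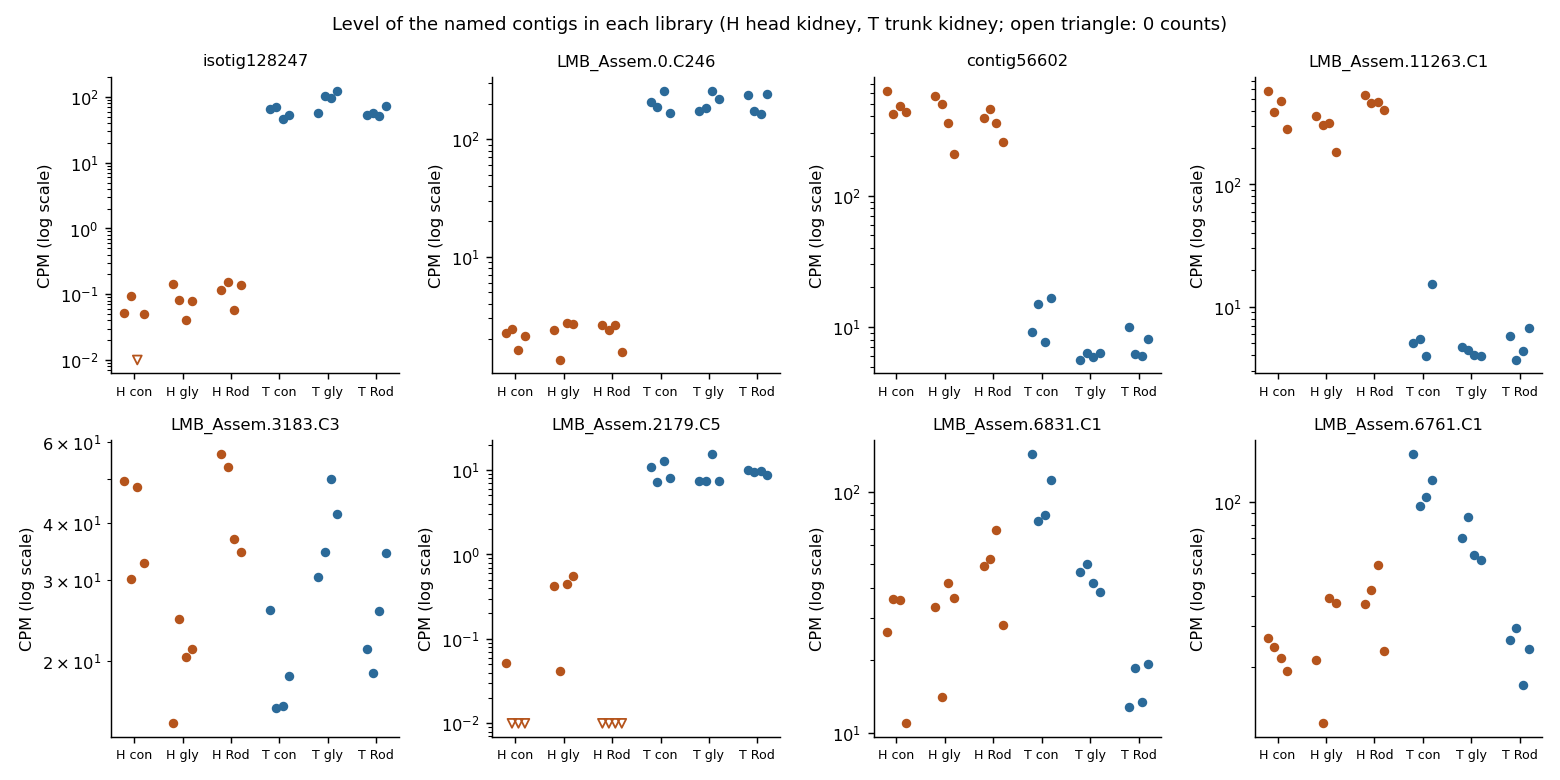
Each point is a library's TMM-scaled level (CPM, log axis) of a named contig, in head (orange) and trunk (blue) groups of 4, with open triangles for 0 counts. In the upper row the tissues do not overlap in any treatment, as for isotig128247 at 46.8 to 125 CPM in trunk and at most 0.155 CPM in head. The lower row is for tissue by label. It shows the 2 contigs in each direction with the smallest p of that direction at a mean log2 CPM of 1 or more.

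Each treatment label was then fitted alone, 4 trunk against 4 head libraries. In control 20482 contigs (39.1%) passed, 13780 (26.3%) higher in trunk and 6702 (12.8%) higher in head. In glyphosate 21099 (40.3%) passed, 12880 (24.6%) and 8219 (15.7%). In Rodeo 22505 (42.9%) passed, 14394 (27.5%) and 8111 (15.5%). The median log2 difference of the trunk-higher contigs lay between 4.07 and 4.26 in the 3 treatments, and that of the head-higher contigs between -2.96 and -2.44. The glyphosate split rested most on the scaling, since 61.0% of its calls were trunk-higher under TMM and 38.1% under library totals. The corresponding shares were 67.3% and 57.6% in control and 64.0% and 55.9% in Rodeo.

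The differences that held in every treatment were counted next. In all 3 treatments, 14011 contigs (26.7%) were called the same way, 9928 (18.9%) higher in trunk and 4083 (7.79%) higher in head. These were 56.1% of the 17684 contigs called trunk-higher in any treatment and 34.1% of the 11976 called head-higher in any treatment. Under library totals, 7580 trunk-higher and 5871 head-higher contigs held. A further 6404 contigs were called the same way in exactly 2 treatments. Only 56 contigs were called in opposite directions in 2 treatments, and 0 of these passed in the comparison of all 24 libraries. Conversely, 2752 contigs passed over all 24 libraries and in no treatment alone, 884 higher in trunk and 1868 higher in head.

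The contigs that held had larger differences, with a median of 5.11 over all 24 libraries for trunk-higher (5.06 with contigs at 0 set to their limit) and -2.85 for head-higher. The 24 libraries did not overlap by tissue for 7645 (77%) of the trunk-higher and 2679 (65.6%) of the head-higher contigs that held. They had to pass the threshold in all 3 fits, so size as well as direction selected them. The size still varied between treatments. The range of the 3 log2 differences had a median of 1.13, and it was under 1 for 6182 (44.1%).

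The 3 fits share no library, so a list from 1 can be read in another, although libraries of different labels may come from the same fish. Of the 13780 contigs trunk-higher in control, 76.9% passed trunk-higher in glyphosate and 85.8% in Rodeo. Of the 6702 head-higher in control, 69.8% and 74.9% did so in the head-higher direction. Read into control, 56.9% of the 8219 glyphosate and 61.9% of the 8111 Rodeo head-higher contigs passed. These are the same 4677 and 5021 shared contigs, set against longer lists. For trunk-higher contigs the shares read into control were 82.3% from glyphosate and 82.2% from Rodeo. The sign was the same for 96.2% to 99.1% of each list, a share that cannot be below that of the call. These lists keep contigs that passed the filter through a single tissue, and the 3 fits share the filter and the TMM factors. The same share over all tested contigs is not given here. Across all 52407 contigs, which are not independent replicates, the log2 differences of a pair of treatments had Pearson correlations of 0.875 to 0.902.

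**Figure D4:**
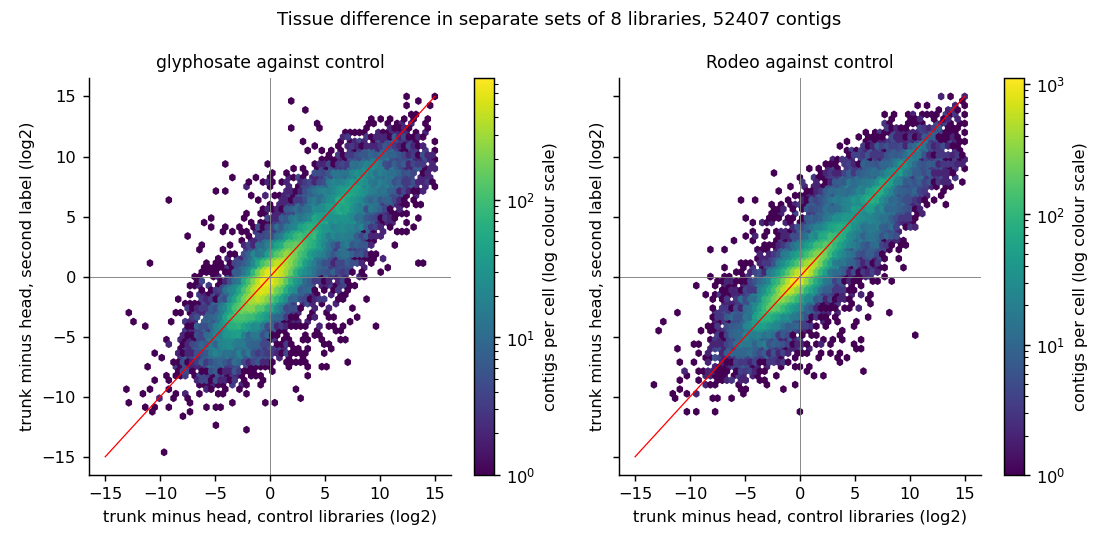
Contigs are binned by their log2 difference, trunk minus head, in the 8 control libraries (x axis) and in the 8 glyphosate (left) or Rodeo (right) libraries (y axis), with colour for the number of contigs per cell on a log scale and the red line for equal differences. Contigs lie along the line in both panels, with Pearson correlations of 0.875 and 0.902 over 52407 contigs.

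Single libraries were placed by contigs chosen without them. For each library, the contigs called the same way in both other treatments were taken, and the share of its counts in them was measured. Trunk libraries held 49.3% ± 3.71 of their counts in such trunk-higher contigs (SD, n = 12, range 42.4% to 54.1%) and head libraries 10.5% ± 1.25 (SD, n = 12, range 9.17% to 12.8%). For the head-higher contigs the shares were 27.7% ± 1.78 in head libraries (range 25.5% to 30.5%) and 3.93% ± 0.546 in trunk libraries (range 3.30% to 5.22%; SD, n = 12 each). Neither range overlapped, so each library lay with its labelled tissue on both lists. These are shares of raw counts and do not depend on the scaling of the library itself, only on the lists.

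**Figure D5:**
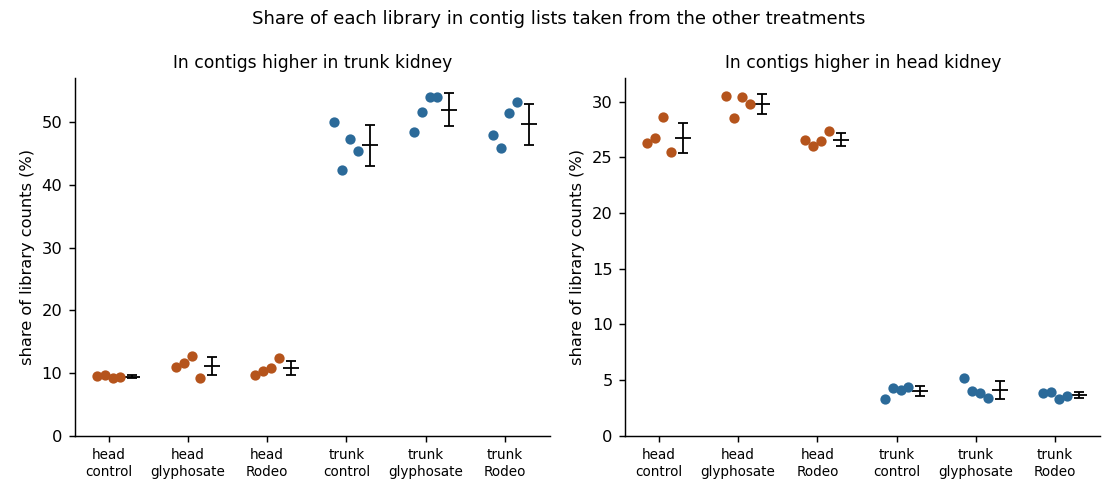
Points give, for each library, the share of its counts (%) in contigs called higher in trunk (left) or higher in head (right) in both other treatments, with the mean and SD of each group of 4 beside them. Head and trunk libraries do not overlap in either panel, with 42.4% to 54.1% against 9.17% to 12.8% on the left and 3.30% to 5.22% against 25.5% to 30.5% on the right.

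In trunk libraries the trunk-higher list stood lowest in control, at 46.3% ± 3.23, against 52.0% ± 2.68 in glyphosate and 49.7% ± 3.30 in Rodeo (SD, n = 4 each). The lists differ between treatments, so these means were not tested against each other, and their library values overlapped. The 24-library lists gave the same picture by tissue. The trunk-higher contigs took 57.3% of all trunk counts and 14.7% of all head counts, and the head-higher contigs took 5.72% and 35.1%. The direction of each list was chosen on these libraries.

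Contigs alike in both tissues were also counted. For 7337 contigs (14.0%) the 95% interval of the log2 difference lay between -1 and 1, so that a 2-fold difference was outside it. They took 21.9% of the trunk and 30.3% of the head counts and had a median mean level of 3.95 log2 CPM. A further 17077 contigs (32.6%) were neither called nor alike, at a median level of -0.24 log2 CPM. For these a 2-fold difference was neither called nor outside the interval. An adjusted p under 0.05 with a difference of at most 1 was found for 5227 contigs, 1660 of them among those alike.

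By level, the share called was highest among the most abundant contigs. It was 49.8% below a mean log2 CPM of 0, 58.6% from 0 to 2, 56.2% from 2 to 4, 48.6% from 4 to 6 and 55.2% from 6 to 8. Among the 412 contigs at 8 or above, 68.2% were called, 208 higher in trunk and 73 higher in head. For the medians by level, contigs at 0 in a tissue were set to their limit. The median difference of the trunk-higher contigs was 3.97 below 0, 2.59 from 4 to 6, 2.87 from 6 to 8 and 2.48 at 8 or above. That of the head-higher contigs stayed between -2.38 and -1.84. The contigs came in 3 kinds of identifier, and with TMM each of them had more contigs higher in trunk. The shares were 29.3% trunk-higher and 21.9% head-higher of the LMB_Assem contigs, 32.7% and 20.9% of the isotig contigs and 31.8% and 27.2% of those named contig. The isotig contigs took 13.4% ± 0.958 of trunk and 10.5% ± 0.603 of head counts (SD, n = 12 each; permutation test, two-sided, adjusted p = 6e-05), and their ranges did not overlap. The LMB_Assem share went the other way, at 75.3% ± 0.824 in trunk and 78.6% ± 1.21 in head (SD, n = 12 each; permutation test, adjusted p = 6e-05), also without overlap. The shares of the 3 kinds add up to the whole library, so they are not independent.

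With the 3 labels pooled, the spread between libraries of a group was similar in the tissues. The biological coefficient of variation was 0.470 in head and 0.476 in trunk, and 0.465 and 0.463 after thinning to equal depth. Within labels the order of the tissues changed. It was 0.534 in head and 0.460 in trunk for control, 0.463 and 0.543 for glyphosate and 0.415 and 0.421 for Rodeo. By group, the median SD of log2 CPM over 26217 contigs with a mean of at least 1 log2 CPM was highest in trunk glyphosate, at 0.600, and head control, at 0.560. It was 0.402 in trunk Rodeo, the lowest, and 0.447 to 0.465 in the other 3 groups. For these contigs tissue took a median of 51.5% of the sum of squares of log2 CPM, the treatment label 2.99%, tissue by label 4.07% and the libraries within groups 36%. Over their summed squares the parts were 75.7% for tissue and 19% within groups.

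Whether the tissue difference itself depended on the treatment label was tested for each contig. By edgeR's quasi-likelihood test of both interaction terms, 2 of 52407 contigs passed an adjusted p of 0.05 (0.00382%), and 5617 (10.7%) had an unadjusted p under 0.05. Taken in pairs of labels, 3 contigs (0.00572%) passed between Rodeo and control. Between glyphosate and control 0 (0%) passed, and between Rodeo and glyphosate 0 (0%). Of the 52407, 6292 (glyphosate and control), 3165 (Rodeo and control) and 5574 (Rodeo and glyphosate) had an unadjusted p under 0.05. The pair with the 3 calls thus had the fewest small p-values, and a count of 0 does not show an unchanged tissue difference. DESeq2 called 425 contigs for both terms together, and edgeR called 0 under library totals and from 0 to 13 with 1 library left out. Because 0 of the 8 alike pairs shared a label, a tissue difference that depends on the label cannot be told apart from labels that differ in meaning between the tissues.

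The 3 contigs that passed had a lower trunk minus head difference, with its sign counted, in Rodeo than in control. LMB_Assem.6831.C1 was at 143, 75.6, 80.0 and 112 CPM in trunk control 1 to 4 and at 26.3, 35.8, 35.7 and 11.0 CPM in head control. In Rodeo it was at 12.8, 18.7, 13.4 and 19.3 CPM in trunk and at 49.0, 52.6, 69.7 and 27.9 CPM in head. Trunk lay above head in every control library and below it in every Rodeo library, without overlap. In glyphosate the tissues came close, at 38.4 to 50.2 CPM in trunk and 14.1 to 41.8 CPM in head. The difference of the log2 differences, Rodeo minus control, was -3.55 (SE 0.506, edgeR adjusted p = 0.0095 for the pair and 0.0389 for both terms).

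LMB_Assem.6761.C1 followed the same pattern in control, at 96.0 to 159 CPM in trunk and 19.3 to 26.5 CPM in head. In Rodeo it was at 26.1, 29.3, 16.9 and 23.9 CPM in trunk and at 37.0, 42.6, 53.9 and 23.5 CPM in head, so that these libraries overlapped. The difference was -3.09 (SE 0.449, edgeR adjusted p = 0.0095 for the pair and 0.0389 for both terms). LMB_Assem.10373.C1 passed for the pair alone and was named after its values were seen. Its difference was -2.87 (SE 0.474, edgeR adjusted p = 0.0492), with 17.7 to 32.7 CPM in trunk and 66.9 to 194 CPM in head Rodeo libraries. In control the tissues overlapped, at 55.2 to 109 CPM in trunk and 42.9 to 62.1 CPM in head. Its trunk minus head difference was 0.48 within control and -2.39 within Rodeo, so the tissues lay further apart in Rodeo. For both terms together, LMB_Assem.6831.C1 lost its call without 16 of the 24 libraries in turn and LMB_Assem.6761.C1 without 17, with edgeR adjusted p up to 0.175. Under library totals their edgeR adjusted p were 0.079 and 0.0849.

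The contigs with the smallest p for a larger trunk minus head difference did not pass. Direction was read from the pair of labels with the largest change, which was not the same pair for both contigs. Another pair had the opposite sign, Rodeo minus glyphosate for LMB_Assem.3183.C3 and glyphosate minus control for LMB_Assem.2179.C5. LMB_Assem.3183.C3 was at 15.8 to 25.9 CPM in trunk and 30.1 to 49.3 CPM in head control, and at 30.5 to 49.9 CPM in trunk and 14.6 to 24.6 CPM in head glyphosate. The tissues did not overlap in either label and lay in opposite order, with a difference of 2.02 (SE 0.378, edgeR adjusted p = 0.173 for the pair and 0.0952 for both terms). LMB_Assem.2179.C5 was at 7.30 to 15.5 CPM in every trunk library. In head it was absent from the lists of all 4 Rodeo libraries and of 3 of 4 control libraries, and was set to 0 there. In head glyphosate it was at 0.424, 0.0413, 0.453 and 0.553 CPM. In Rodeo the trunk mean of 9.53 CPM was at least 218-fold higher than the head level that 3 counts over the 4 libraries allow, and the edgeR adjusted p for Rodeo against glyphosate was 0.0991.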

How the data were processed

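Poly(A) RNA of each kidney was sequenced from directional libraries, per the labels' protocols. The deposited values are whole-number read counts per contig that the authors had not normalized, per the file values. Contigs absent from a library's list were set to 0. The tools named in the submitters' processing notes are cutadapt, SAMtools, DESeq and edgeR, with no version. Which aligner and counter made the values, whether strand was used and how the contigs were assembled was not given in the sources used here. Several contigs can stem from the same gene and near-identical contigs can share reads, which makes the value of any single contig uncertain.

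Of 78435 contigs, filterByExpr on the 6 groups kept 52407, and 0 identifiers matched a table of 37622 gene names. Counts were fitted with edgeR 4.0.16 in R 4.3.3 (TMM, quasi-likelihood F test, Benjamini-Hochberg adjustment over all tested contigs). The tissue fit held all 24 libraries with treatment as a covariate. Each fit within a treatment held only its 8 libraries, with the contigs and TMM factors of all 24. A contig was called at an adjusted p under 0.05 with a log2 change over 1. The SE was taken as |log2 change| / √F. Log2 CPM used a prior count of 2.

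Named contigs were, for the tissue comparison, the 2 in each direction with the smallest p among those held in all 3 treatments at a mean log2 CPM of at least 5. For tissue by treatment they were the 2 in each direction with the smallest p at a mean log2 CPM of at least 1. Direction there was that of the pair of labels with the largest change. The libraries, lists and rules were chosen with earlier results of these data known. Whether a group's 4 libraries represent different tanks is not stated, so p-values reflect only how these libraries varied. Libraries of a group differed beyond sampling noise (chi-square per degree of freedom 37.9 to 192), so none was counted as a repeat. The test steps were tested on simulated data. On/off contigs were those that reached 1.5 log2 CPM or more in both tissues and split the libraries of each tissue by a gap of more than 8-fold. The alternatives were other scalings (library totals, relative log expression, upper quartile, median set to 0), filters, thinning to 9871623 counts, DESeq2 1.42.0, a replicate block and leaving out libraries.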

Additional observations from a re-analysis of the deposited data

Results flagged for a closer look

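The tissue difference of LMB_Assem.6831.C1 differed between Rodeo and control by -3.55 on the log2 scale, that of LMB_Assem.6761.C1 by -3.09 and that of LMB_Assem.10373.C1 by -2.87, each by edgeR's test of the difference itself. In all 3, trunk minus head, with its sign counted, was lower in the Rodeo libraries than in the control libraries.

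A further 8 values stood apart from the other 3 libraries of their group, with a gap to the nearest that passed Dixon's 95% limit, among 120 groups looked at. Chance gives about 1 in 20. Of the named contigs, LMB_Assem.11263.C1 was at 15.4 CPM in trunk control 4, above its 3 companions and below every head library. LMB_Assem.2179.C5 was at 15.5 CPM in trunk glyphosate 3 and at 0.0513 CPM in head control 1, where the other head controls had 0 counts. The head value is 1 count, and any value passes the limit when its companions are all at 0. Trunk Rodeo 2 was the deepest of its group at 27386031 counts. Head glyphosate 1 had the fewest contigs of its group at equal depth, 45378. Trunk glyphosate 4, which also had the lowest TMM factor, held 16.2% of its counts in isotig contigs. The share of counts in identifiers of the kind contig was lowest in head glyphosate 3, at 9.06%, and in head Rodeo 4, at 9.72%.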

How the results depend on the processing

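The counts of contigs called between the tissues, over all libraries (together and in each direction), within each treatment and in all 3 treatments (both directions together), stayed within 1.5 times the reported count under every alternative run. By direction within a treatment, head-higher contigs in glyphosate numbered 14293 under library totals against 8219 reported. The split by direction did move with the scaling, as given in the report. With 1 library left out, the tissue comparison called 27547 to 28253 contigs, control 17503 to 21239, glyphosate 18395 to 21027, Rodeo 20645 to 21628, and 12943 to 14334 held in all 3 treatments. The 4 contigs named for tissue kept their direction and their call in all 144 refitted values of the tissue comparison, 36 for each contig. They also did so in all 204 within treatments, 17 for each contig and treatment. Some of these refits leave out libraries, and the contigs were chosen for the smallest p.

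The tissue-by-treatment count of 2 was 0 under library totals alone, 0 with the replicate block, 425 with DESeq2 and 0 to 13 with 1 library left out (13 without head glyphosate 4). Of 155 refitted values of its named contigs, 31 for each contig, 37 lost and 5 gained a call and 0 changed sign. The cause was not tested. Contigs with all 12 head above all 12 trunk libraries numbered 5163 instead of 3034 under upper-quartile scaling. With lists from all 24 libraries, trunk and head libraries held 57.5% and 14.6% of their counts in the trunk-higher list. For the head-higher list the shares were 5.68% and 35.3%. These lists hold more contigs and were chosen on the same libraries. Why the shares were higher was not tested.

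Replicate numbers did not pair the tissues: same-numbered head and trunk libraries had correlations of their deviations from -0.168 to 0.173, and 0, 0 and 2 of 8 libraries in control, glyphosate and Rodeo correlated best with their own number. With a replicate block of number and treatment, 26512 contigs were called between the tissues and 11537 held in all 3 treatments. The fits without trunk glyphosate 2 to 4, scaling within the treatment and the alternatives for contigs alike or without overlap were chosen after seeing the data. The SE was largest among the lowest contigs, with a median of 0.670 below a mean log2 CPM of 0. How far depth sets this was not tested. After thinning, 23264 of 41608 tested contigs were called.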
